A study of Mus musculus with 12 samples.

Results

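The AP-1 transcription factor family was followed in mouse embryonic fibroblasts (MEFs) with and without type 2 transglutaminase (TG2). The 9 members were the genes named Fos, Fosb, Fosl1, Fosl2, Jun, Junb, Jund, Atf3 and Maff among the 45808 genes of the deposited table of normalized values. They were taken by name and not by a threshold on their values, but earlier results of these data were known when they were chosen. Messenger RNA had been sequenced from WT and TG2 KO (TG2-/-) MEFs of strain C57BL/6, both kept at 37 °C (control) or placed at 42 °C for 20 min (heat shock). There were 4 groups (WT control, KO control, WT heat shock, KO heat shock) of 3 libraries each. The cells were immortalized cultures grown from embryos, so an effect of genotype cannot be told apart from a difference between lines that became immortal separately. The study asked what TG2 does to the transcriptome before and after the heat shock response is switched on.

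AP-1 is a set of dimers of basic leucine zipper proteins, which grip DNA with a basic region and each other with a zipper of leucines. Jun proteins can pair with themselves or with Fos proteins, whereas Fos proteins need a partner. Fos, Fosb, Jun, Junb and Atf3 belong to the immediate early genes, which are transcribed within minutes of a stimulus from factors already present in the cell, and MAP kinases activated by stress feed into several of them. Fosl1 and Fosl2 encode Fra-1 and Fra-2, Fos relatives without a strong activation domain, and Jund is commonly present in resting cells. Atf3 is a stress-induced relative that often acts as a repressor, and Maff is a small Maf protein that lacks an activation domain of its own.

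Expression is given as signal, the read count of a gene divided by the size factor of its library. A signal of 1 was worth about 1 read, since 1 read stood for a signal of 0.699 to 1.38. Reads in genes numbered 15319300 to 27668395 a library (median 19119552). All 9 members passed the filter for low values (3 or more libraries with a signal of 10 or more), as did 14201 genes in all. Tgm2, the targeted gene, lay at 1605 to 2049 in WT and 526 to 1189 in KO libraries, so its reads were lower but not absent in KO. The heat shock gene Hspa1b went from 36.3 to 62.8 in WT control to 2061 to 5677 in WT heat shock libraries, and from 2.12 to 9.99 to 66.4 to 103 in KO. Of 10 fibroblast markers, 9 had a mean of at least 10 in every group (Lum was lower), with a summed level of 205200 to 372200 in WT and 216100 to 343000 in KO. Single markers in that sum differed between WT control and KO control in either direction, with means of 517 and 8249 for Thy1, 98360 and 12740 for Col1a1 and 9001 and 3034 for Pdgfra. The summed level of 5 endothelial markers was 21.7 to 29.6 in WT, mostly Kdr, and 4.52 to 16.7 in KO. Kdr had means of 25.1 and 0.35 in WT control and KO control. The others were low and went the other way, such as Pecam1 (1.20 and 4.94) and Cdh5 (0 and 4.03). For 4 neuron markers the sum was 1135 to 1474 in WT and 907 to 1165 in KO, mostly Tubb3. Tubb3, which cultured fibroblasts also make, had means of 1047 and 1022 in WT control and KO control. Syt1 had 158 and 14.4, while Rbfox3 and Snap25 were at 0 in every group. The summed level of 6 myeloid markers was 4153 to 5620 in WT, mostly Csf1r (means of 4332 and 5153), and 91.6 to 148 in KO, mostly Cd68, which cultured fibroblasts also make (means of 84.7 and 129 in KO against 124 and 204 in WT). The defining marker Adgre1 was at 0 in every group and Ptprc, Itgam and Lyz2 had means of 0 to 2.47. The summed level of 4 skeletal muscle markers was 7.26 to 18.5 in WT and 193 to 246 in KO, carried by Des, with Myod1 and Myog at means of 0 to 1.44. These marker differences move with genotype, and their part in the genotype differences below was not tested.

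In WT MEFs, 4 of 9 members rose on heat shock and the other 5 were not called. The 4 were Atf3, Fos, Jun and Junb, which rose by 5.80, 4.29, 2.26 and 1.77 times, while Fosb, also an immediate early gene, was among the 5. Genes count as called where limma on log2(signal + 1) gave at least 1.5-fold and an adjusted p (Benjamini-Hochberg, over all genes tested) of 0.05 or less, and every log2 value below is a difference on that scale. Of all genes tested, 523 (3.68%) were called in this comparison, 1.66% higher and 2.02% lower. The median log2 fold change was 0.47 over the 9 members and 0.00 over all genes tested.

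Atf3 had a signal of 55.0, 49.8 and 50.3 in the 3 WT control libraries and of 420, 459 and 146 in the 3 WT heat shock libraries. Every heat-shocked library lay above every control library, but replicate 3 was far below the others. The mean was 51.7 ± 2.84 in control and 342 ± 170 in heat-shocked libraries (SD, n = 3 each), and the log2 fold change 2.54 (SE 0.33, adjusted p = 3.31e-04 from limma). These levels rest on 194 control and 953 heat shock reads.

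Fos, the founding member of its branch, had a signal of 20.7, 39.7 and 31.4 in WT control and of 154, 151 and 95.1 in WT heat shock libraries. The groups did not overlap, and replicate 3 was again the lowest heat-shocked library. The mean went from 30.6 ± 9.51 to 133 ± 33.3 (SD, n = 3 each), and the log2 fold change was 2.10 (SE 0.26, adjusted p = 2.53e-04 from limma). Fos was scarce before heat shock, with 120 reads over the WT control libraries.

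Jun, the usual partner of Fos, was at 864, 911 and 841 in WT control and at 2269, 2438 and 1380 in WT heat shock libraries. The control libraries were close together and all heat-shocked ones were above them, with replicate 3 lowest. The mean went from 872 ± 35.7 to 2029 ± 568 (SD, n = 3 each), which is a log2 fold change of 1.18 (SE 0.16, adjusted p = 4.47e-04 from limma). Junb, a Jun relative with weaker activating strength, was at 3999, 4751 and 3717 in WT control and at 6446, 9403 and 6444 in WT heat shock libraries. All heat-shocked libraries were above the controls, and here replicate 2 stood above the other two. The log2 fold change was 0.82 (SE 0.15, adjusted p = 0.00197 from limma).

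The other 5 members were not called in WT MEFs, although all had a positive fitted fold change. Fosl1 was at 1610, 1451 and 1376 in WT control and at 1812, 2252 and 2079 in WT heat shock libraries, without overlap. Its log2 fold change of 0.47 had an adjusted p of 0.00173 from limma but was under the 1.5-fold threshold. Jund changed by 0.44 (adjusted p = 0.0383) and Maff by 0.37 (adjusted p = 0.0286), also under that threshold, and the Jund libraries overlapped. Fosl2 changed by 0.16 (95% interval 0.02 to 0.29) and Fosb, a Fos relative, by 0.11 (95% interval -0.22 to 0.45), with overlapping libraries.

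**Figure D1:**
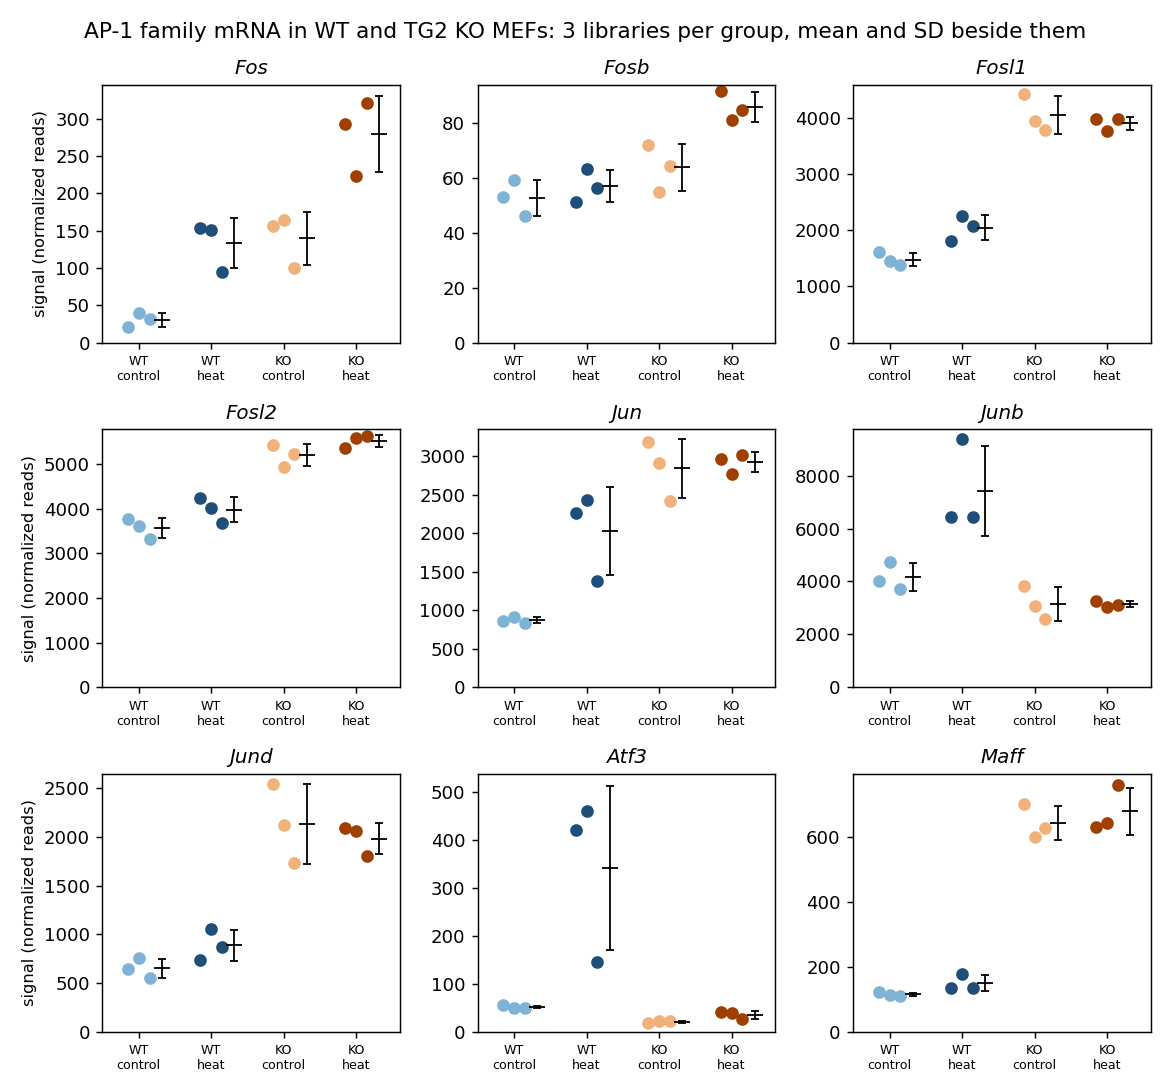
Signal of each of the 9 AP-1 members (vertical axis, linear, from 0) in the 12 libraries, grouped along the horizontal axis by genotype and treatment; points are libraries, and the bar beside each group is the mean ± SD (n = 3). Atf3 is highest in WT heat shock libraries (146 to 459), whereas Fosl1, Fosl2, Jund and Maff are higher in every KO library than in any WT library.

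WT heat shock replicate 3 was lower than the other heat-shocked WT libraries in heat shock genes as well. Against the mean of the WT control libraries, the 3 heat-shocked libraries had 8.12, 8.88 and 2.83 times the Atf3 signal, and 5.03, 4.94 and 3.10 times the Fos signal. The same libraries had 2.60, 2.80 and 1.58 times the Jun signal. For Hspa1b the ratios were 88.8, 115 and 41.8, and for Hspb1, a small heat shock protein, 3.44, 3.73 and 2.23. Replicate 3 was thus the lowest library for all of these genes, while Junb was 1.55, 2.26 and 1.55 times its control mean. Without this library the log2 fold changes in WT MEFs were 3.06 for Atf3, 2.33 for Fos, 1.43 for Jun and 0.91 for Junb, and all 4 were still called. What sets this library apart was not tested.

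**Figure D2:**
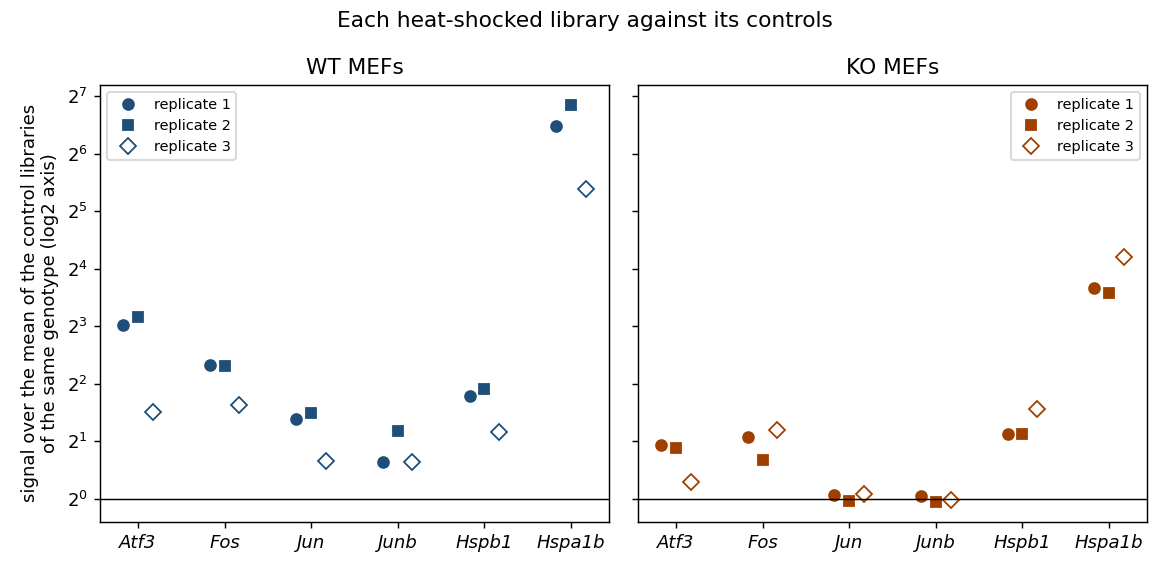
Signal of each heat-shocked library divided by the mean of the 3 control libraries of the same genotype (vertical axis, log2 scale, 1 = no change) for Atf3, Fos, Jun, Junb and the heat shock genes Hspb1 and Hspa1b, in WT (left) and KO (right) MEFs. In WT, the open diamond of replicate 3 lies under both other libraries for Atf3 (2.83), Fos (3.10), Jun (1.58), Hspb1 (2.23) and Hspa1b (41.8), whereas in KO replicate 3 is the highest library for Fos (2.29), Hspb1 (2.94) and Hspa1b (18.5) and the lowest for Atf3 (1.23).

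The bases in front of the start sites of the 4 genes that rose are shown because early gene control is described in textbooks through elements close to the start site. Each window holds the 250 bases upstream of the RefSeq start site (GRCm38.p6), written 5′ to 3′ on the strand of the gene. For Atf3 that site (base 191183333) lies inside the gene as GENCODE M21 annotates it (191170296 to 191218039), not at its 5′ end. Capitals mark matches, on either strand, to TGACG (the core of the cyclic AMP response element bound by ATF and CREB proteins), TGACNTCA (an AP-1 and ATF type element) and GAANNTTC (a pair of heat shock element units). The Fos window is chr12:85473640-85473889 on the plus strand, the Jun window chr4:95052223-95052472 on the minus strand, the Junb window chr8:84978749-84978998 on the minus strand and the Atf3 window chr1:191183334-191183583 on the minus strand.
Fos: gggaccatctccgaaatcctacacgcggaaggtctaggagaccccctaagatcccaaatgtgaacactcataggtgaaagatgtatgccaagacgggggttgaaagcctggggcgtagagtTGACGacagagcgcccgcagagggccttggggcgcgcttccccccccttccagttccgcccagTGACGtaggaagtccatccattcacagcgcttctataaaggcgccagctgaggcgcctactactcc
Jun: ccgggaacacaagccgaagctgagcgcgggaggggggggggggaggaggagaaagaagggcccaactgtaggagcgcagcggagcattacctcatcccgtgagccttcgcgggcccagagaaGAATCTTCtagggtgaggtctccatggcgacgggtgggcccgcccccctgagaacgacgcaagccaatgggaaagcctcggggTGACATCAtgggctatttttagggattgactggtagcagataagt
Junb: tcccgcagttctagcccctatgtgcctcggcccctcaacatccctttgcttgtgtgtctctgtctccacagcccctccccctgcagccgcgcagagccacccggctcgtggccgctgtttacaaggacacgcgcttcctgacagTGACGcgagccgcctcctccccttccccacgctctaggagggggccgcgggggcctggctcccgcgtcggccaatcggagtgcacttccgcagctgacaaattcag
Atf3: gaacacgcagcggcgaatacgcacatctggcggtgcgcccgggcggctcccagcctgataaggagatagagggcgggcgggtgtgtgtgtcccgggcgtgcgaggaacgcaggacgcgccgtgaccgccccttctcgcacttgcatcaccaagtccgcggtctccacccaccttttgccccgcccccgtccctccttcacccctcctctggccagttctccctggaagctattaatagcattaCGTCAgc

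Positions are counted back from the base before the start site, which is -1. Fos had TGACG at -129 to -125 and at -66 to -62, and a TATAAA box at -33 to -28. Jun had TGACATCA at -45 to -38 and GAATCTTC at -128 to -121. Junb had TGACG at -106 to -102, and Atf3 had it on the opposite strand at -7 to -3. Windows were found for 8 of the 9 members, among which TGACG was present in 5, the others being Fosb and Maff. TGACNTCA was present in Jun and Maff, and GAANNTTC in Jun and Fosl2. Over 32851 promoter windows of this length, 17.8% held TGACG, 7.49% TGACNTCA, 6.69% GAANNTTC and 12.4% TATAAA on either strand. These percentages are per window, whereas members were counted per gene, and Maff has 3 windows where the others have 1. TGACGTCA, which occurs in a Maff window, matches both TGACG and TGACNTCA. The letters TGAGTCA (4.46% of windows), TTCNNGAA (7.17%) and the CArG box of serum response factor (1.47%) were in no member's window. Bases farther than 250 upstream were not searched, so this does not show that a gene lacks such an element. A match is a description of the letters and does not show that a factor was bound.

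In KO MEFs, none of the 9 members was called on heat shock by limma, against 126 genes called in all (0.887%: 0.577% higher and 0.31% lower). At an unadjusted p under 0.05 there were 2 of 9 members, Fos and Fosb, against 16.72% of all genes tested (in WT, 8 of 9 members against 40.76%), and edgeR and DESeq2 on the recovered reads each called 1 member, Fos. The median log2 fold change was 0.08 over the members and 0.00 over all genes tested.

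Fos was at 156, 165 and 99.5 in KO control and at 293, 223 and 321 in KO heat shock libraries. All heat-shocked libraries were above all controls, with means of 140 ± 35.4 and 279 ± 50.5 (SD, n = 3 each). The log2 fold change was 1.01 (95% interval 0.45 to 1.56), with an adjusted p of 0.0566 from limma. With edgeR it was 0.97 (adjusted p = 0.0035) and with DESeq2 0.99 (adjusted p = 1.43e-04). The fit with limma called it with a pseudocount of 5 (adjusted p = 0.0305), with a filter of 50 (adjusted p = 0.0464) and without WT control replicate 1 (adjusted p = 0.0314). The call for Fos in KO MEFs thus turned on the tool, these settings and that library. Unstressed KO MEFs (99.5 to 165) and heat-shocked WT MEFs (95.1 to 154) overlapped in their Fos signal.

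Atf3 was at 19.1, 23.3 and 21.5 in KO control and at 40.7, 39.4 and 26.2 in KO heat shock libraries. These libraries did not overlap either, but the values rest on 65 and 99 reads, and the log2 fold change of 0.69 had an interval of -0.02 to 1.39 (adjusted p = 0.316 from limma). The highest heat-shocked KO library had less Atf3 signal than the lowest WT control library.

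Jun was at 3188, 2919 and 2426 in KO control and at 2965, 2777 and 3024 in KO heat shock libraries, which overlapped. Its log2 fold change was 0.05 with a 95% interval of -0.29 to 0.39, where WT MEFs had 1.18. Junb was at 3829, 3075 and 2570 in KO control and at 3255, 3040 and 3118 in KO heat shock libraries. Its log2 fold change was 0.01 (95% interval -0.31 to 0.33). Fosb was at 72.1, 54.9 and 64.4 before and at 91.6, 80.9 and 84.8 after heat shock, a log2 fold change of 0.43 (95% interval 0.09 to 0.76, adjusted p = 0.174 from limma). The log2 fold changes of Fosl1, Fosl2, Jund and Maff lay between -0.09 and 0.09, with overlapping libraries.

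**Figure D3:**
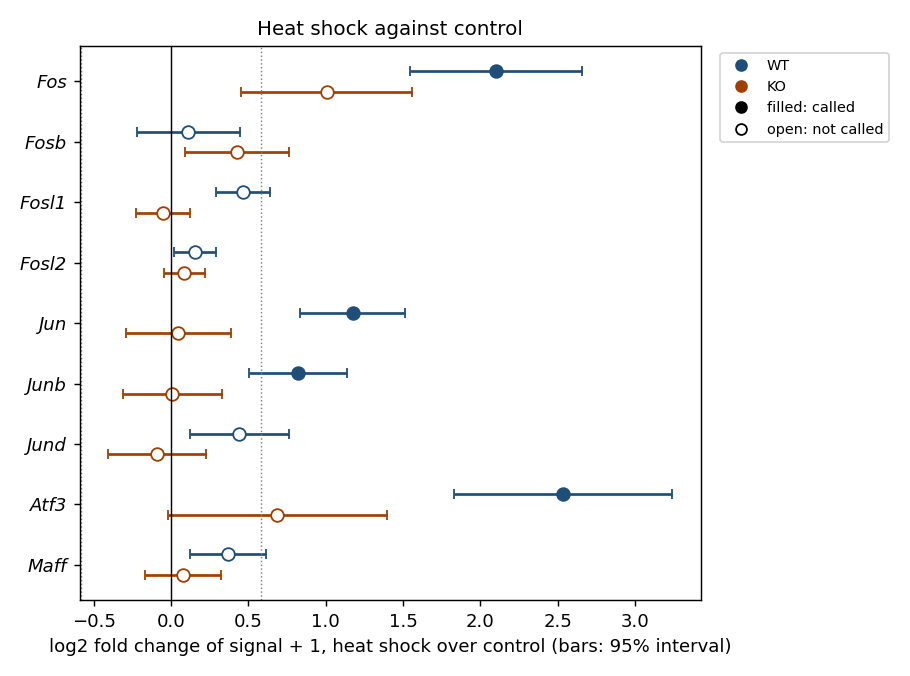
Log2 fold change of signal + 1 on heat shock (horizontal axis) for each AP-1 member in WT (blue) and KO (orange) MEFs; horizontal bars are 95% intervals, filled points are called (adjusted p of at most 0.05 and at least 1.5-fold, the dotted line) and open points are not. The 4 filled points are all WT: Atf3 (2.54), Fos (2.10), Jun (1.18) and Junb (0.82).

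The difference between the responses was tested in the same fit, as the log2 fold change in KO minus that in WT. It was called by limma for 0 of 9 members and for 0 of the 14201 genes (0%). At an unadjusted p under 0.05 there were 6 of 9 members and 2532 genes (17.83%). The 6 were Atf3, Jun, Fos, Junb, Jund and Fosl1, all with a negative difference.

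The difference was -1.85 for Atf3 (95% interval -2.85 to -0.85, adjusted p = 0.120 from limma) and -1.13 for Jun (95% interval -1.61 to -0.65, adjusted p = 0.0974 from limma). For Fos it was -1.09 (adjusted p = 0.177), for Junb -0.81 (adjusted p = 0.122), for Jund -0.53 (adjusted p = 0.218) and for Fosl1 -0.52 (adjusted p = 0.112). Maff (-0.29), Fosl2 (-0.07) and Fosb (0.32) had intervals that held 0. On the recovered reads, edgeR called 10 genes including Jun (-1.20, adjusted p = 0.0153), and DESeq2 called 35 genes including Jun (-1.19, adjusted p = 0.00549) and Junb (-0.85, adjusted p = 0.0465). With DESeq2, Fosl1 had -0.53 (adjusted p = 0.00444) and was under the fold threshold. DESeq2 gave no adjusted p for Atf3, Fos, Fosb or Maff in this comparison. Without WT heat shock replicate 3, limma called Jun (-1.38, adjusted p = 8.69e-04) and Atf3 (-2.38, adjusted p = 0.00434). Without WT control replicate 1 it called Jun (-1.12, adjusted p = 0.0410), and without WT heat shock replicate 1 it called Fosl1 (-0.60, adjusted p = 0.0334). The difference for Jun therefore passed or missed the threshold according to the tool and to which WT libraries entered the fit, and it was negative in each of these fits.

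Before heat shock, the family differed between the genotypes in 6 of 9 members. Maff, Fos, Jund, Jun and Fosl1 were higher in KO control than in WT control libraries, by 5.54, 4.50, 3.27, 3.24 and 2.74 times, and Atf3 was lower. This comparison called 6924 genes (48.8%), 22.9% higher and 25.8% lower, so a call was common among all genes too. The median log2 fold change was 1.45 over the members and -0.04 over all genes tested. With quantile normalization the median of all genes moved from -0.04 to 0.09, and from -0.03 to 0.07 in the heat-shocked comparison.

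Maff was at 121, 114 and 110 in WT control and at 702, 601 and 629 in KO control libraries, far apart. Its log2 fold change was 2.47 (SE 0.11, adjusted p = 5.44e-11 from limma). Jund was at 641, 754 and 553 in WT control and at 2545, 2121 and 1730 in KO control libraries. Its log2 fold change was 1.71 (limma, adjusted p = 7.05e-08). The lowest KO library was far above the highest WT library for Jund, the member typical of resting cells.

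Fosl1, the Fra-1 gene, was at 4427, 3938 and 3781 in KO control libraries against 1376 to 1610 in WT control. The log2 fold change was 1.45 (adjusted p = 5.16e-10 from limma). Fos and Jun were higher by 2.17 (adjusted p = 2.27e-06) and 1.70 (adjusted p = 1.60e-07), with every KO control library above every WT control library for both. Atf3 had 19.1 to 23.3 in KO control libraries against 49.8 to 55.0 in WT control, a log2 fold change of -1.24 (SE 0.33, adjusted p = 0.00329 from limma).

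Fosl2 was at 5434, 4932 and 5232 in KO control libraries and at 3770, 3622 and 3316 in WT control, without overlap. Its log2 fold change of 0.54 (adjusted p = 1.58e-06) was just under the fold threshold, at 1.46 times. Junb had a log2 fold change of -0.41 (95% interval -0.73 to -0.09, adjusted p = 0.0223), with overlapping libraries. Fosb had 0.27 (95% interval -0.06 to 0.60) and was called with quantile normalization alone among the settings tried, at 0.73 (adjusted p = 0.00055).

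After heat shock, 6 of 9 members differed between the genotypes, among 6910 genes called in all (48.7%; 23.2% higher and 25.5% lower). Maff (2.18, adjusted p = 2.23e-10), Jund (1.17, adjusted p = 4.25e-06), Fos (1.08, adjusted p = 0.0016) and Fosl1 (0.93, adjusted p = 7.82e-08) were higher in KO. Atf3 (-3.09, SE 0.33, adjusted p = 6.78e-07) and Junb (-1.22, SE 0.15, adjusted p = 2.90e-06) were lower. The KO heat shock and WT heat shock libraries did not overlap for any of the 9 members. The share of all genes tested without overlap was not counted, so this cannot be read as particular to the members. At an unadjusted limma p under 0.05 there were 9 of 9 members against 77.57% of all genes tested.

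Atf3 was at 26.2 to 40.7 in KO heat shock libraries against 146 to 459 in WT heat shock, and its fitted level in KO was 0.117 of that in WT. Jun had a log2 fold change of 0.57 (adjusted p = 0.00467), Fosb of 0.58 (adjusted p = 0.00343) and Fosl2 of 0.47 (adjusted p = 6.72e-06), all under the fold threshold in this fit. Fosb, at 1.499 times, was called by edgeR (0.60, adjusted p = 0.00298), by DESeq2 (0.59, adjusted p = 0.00732) and with quantile normalization (0.99, adjusted p = 3.19e-05). The comparisons share groups with those above, so the values of a member in them are not independent of each other.

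**Figure D4:**
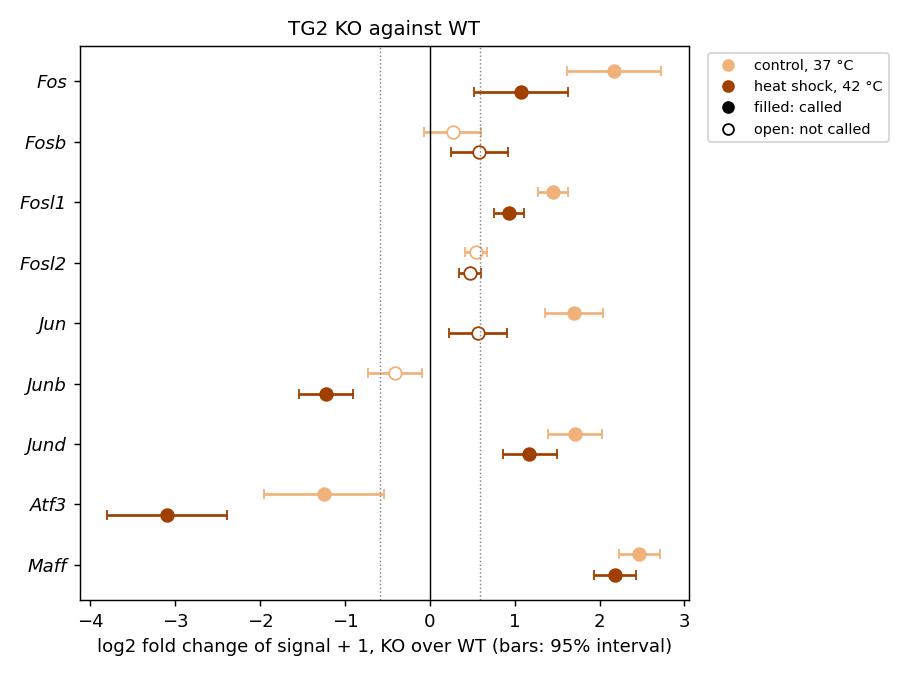
Log2 fold change of signal + 1, KO over WT (horizontal axis), for each AP-1 member in control (light) and heat-shocked (dark) MEFs; bars are 95% intervals, filled points are called and open points are not, and dotted lines mark 1.5-fold. Maff lies at 2.47 and 2.18, whereas Atf3 lies at -1.24 and -3.09 and Junb at -0.41 and -1.22.

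The relative levels of the members were compared per kilobase of exon (union of GENCODE M21 exons). In WT control MEFs the order was Junb (1806 signal per kb), Fosl1 (728), Jund (389), Fosl2 (369), Jun (273), Maff (44.4), Atf3 (24.0), Fos (13.0) and Fosb (8.45). The libraries of Jund and Fosl2 overlapped, as did those of Fos and Fosb. In KO control MEFs Fosl1 came first (1991 signal per kb), followed by Junb (1372) and Jund (1278), which overlapped, then Jun (892), Fosl2 (537), Maff (248) and Fos (59.5). Fosb (10.2) and Atf3 (9.88) were last and overlapped.

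In WT heat shock libraries Junb (3229 signal per kb) and Fosl1 (1007) still led, Jun (636) and Jund (531) overlapped, and Atf3 (159) came before Maff (57.8) and Fos (56.7). The libraries of Maff and Fos overlapped, and those of Atf3 and Maff overlapped only through WT heat shock replicate 3. In KO heat shock libraries the order was that of KO control except that Atf3 (16.4) and Fosb (13.7), whose libraries overlapped, changed places. The level of Jund per kb depends on its annotated length, since RefSeq places its start site farther upstream than GENCODE does.

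Within the Jun branch, Junb made up 73.1% ± 0.52 (SD, n = 3) of the summed signal per kb in WT control and 38.7% ± 0.94 in KO control libraries. Jund made up 15.7% and 36.0%, and Jun 11.1% and 25.3%. After heat shock the shares were 73.3% Junb, 14.5% Jun and 12.2% Jund in WT, and 39.3%, 26.4% and 34.2% in KO. Thus in WT MEFs Junb made up most of the Jun branch, while in KO MEFs its highest share in any library was 40.1%. Within the Fos branch, Fosl1 made up 65.1% and Fosl2 33.0% in WT control, and 76.6% and 20.7% in KO control. Fos itself made up 1.18% before and 3.83% after heat shock in WT, and 2.28% and 4.51% in KO libraries, and Fosb made up at most 0.851% in any library. These shares are a description and were not tested. They concern mRNA, and in a culture fewer cells expressing a gene cannot be told apart from less RNA per cell.

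**Figure D5:**
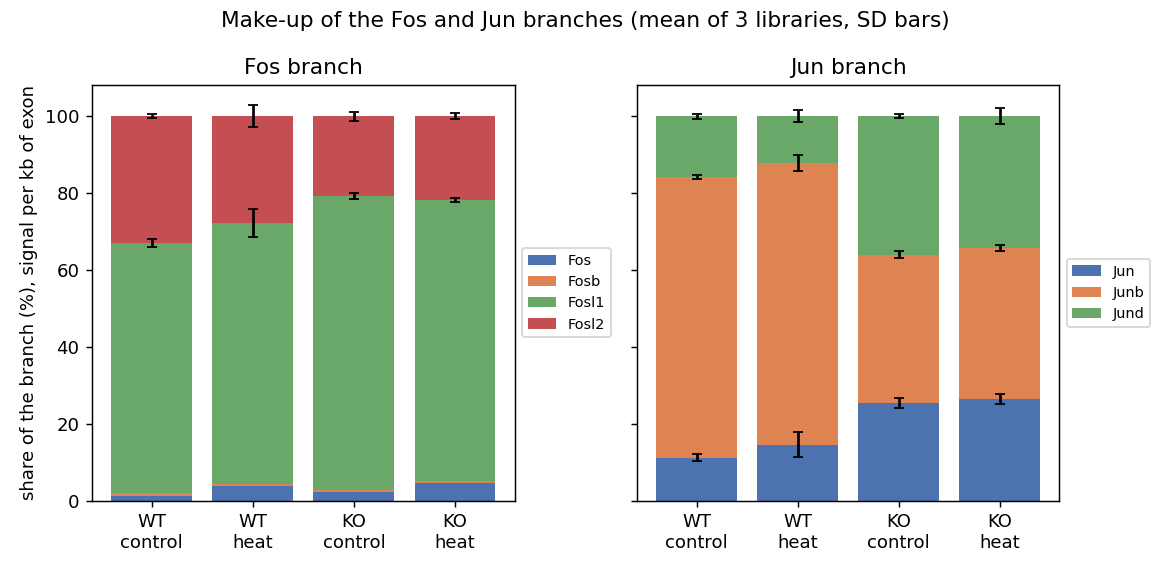
Share of each gene in the summed signal per kb of exon (vertical axis, percent) of the Fos branch (left: Fos, Fosb, Fosl1, Fosl2) and of the Jun branch (right: Jun, Junb, Jund) in the 4 groups; stacked bars are means of 3 libraries and the error bar at the top of a segment is the SD of that gene's share. Junb is at 73.1% in WT control and 38.7% in KO control, with Jund at 15.7% and 36.0%.

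On the GRCm38 assembly (GENCODE M21), Fos lies on chromosome 12 from 85473890 to 85477273, plus strand, and Fosb on chromosome 7 from 19302696 to 19310051, minus strand. Fosl1 lies on chromosome 19 from 5447547 to 5455946 and Fosl2 on chromosome 5 from 32135801 to 32157842, both on the plus strand. Jun, a gene of 1 exon, lies on chromosome 4 from 95049034 to 95052222, minus strand. Junb (84974484 to 84978718, minus strand) and the 1-exon gene Jund (70698949 to 70700616, plus strand) share chromosome 8. Atf3 lies on chromosome 1 from 191170296 to 191218039, minus strand, and Maff on chromosome 15 from 79346621 to 79359076, plus strand.

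Several members overlap a gene on the opposite strand. The libraries were stranded, but the strand setting of the read counting is not given in the sources used here, so reads of such pairs may not be fully separated. The overlapping genes were named because of their position. Junos, the antisense RNA of Jun, had a mean signal of 18.9 ± 1.32 in WT control and 16.6 ± 7.17 in heat-shocked WT libraries, and of 155 ± 13.1 and 157 ± 13.7 in the KO groups (SD, n = 3 each). It was higher in KO control than in WT control by 2.97 (adjusted p = 1.49e-08 from limma). On heat shock in WT MEFs its log2 fold change was -0.25 (adjusted p = 0.441), where Jun rose. Junos was thus 2.17% of the Jun signal in WT control, 0.822% after heat shock, and 5.56% and 5.36% in KO libraries. Ccdc85b, opposite Fosl1, was higher in KO control by 1.11 (adjusted p = 8.01e-05), the direction of Fosl1. Prdx2, a peroxiredoxin opposite Junb, was lower by 0.83 (log2 fold change -0.83, adjusted p = 7.01e-09). It had a mean signal of 16190 in WT control, above that of Junb. A predicted antisense gene opposite Jund had at most 33 reads in a group, and a short noncoding RNA gene (type misc_RNA) opposite Atf3 had no read.

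The genes whose log2(signal + 1) followed a member most closely over the 12 libraries were found among 10893 genes by Pearson's r, as a description. For Fos they were Egr1 (0.98), Trib1 (0.96), Egr2 (0.94), Jun (0.94) and Dnajb1 (0.94). Egr1, an immediate early zinc finger factor, had means of 761 and 1720 in WT MEFs before and after heat shock and of 1952 and 2681 in KO MEFs, the same order as Fos. For Jun they included Dusp1 (0.98), Fbxl12 (0.96), Selk (0.95) and Pkmyt1 (0.94). Dusp1, a phosphatase of MAP kinases, had means of 93.2 and 251 in WT and of 496 and 510 in KO MEFs. For Atf3 they were Anapc13 (0.96), Hspb1 (0.94), Hspa1b (0.94), Ccnl2 (0.94) and Hoxb6 (0.93). The 12 points of each pair share 4 groups and their libraries, so r includes the differences between group means.

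Genes that work with AP-1 were counted from 4 lists drawn up from general knowledge, with earlier results of these data known. Of 21 tested genes of other basic leucine zipper partners (24 listed), none was called on heat shock in WT or KO MEFs by limma, edgeR or DESeq2, with 11 and 4 at an unadjusted limma p under 0.05, which 40.76% of all genes reached in WT and 16.72% in KO. In KO control against WT control, 7 were higher and 6 lower (22.9% and 25.8% over all genes tested, here and for the lists below). Atf5, a stress-related ATF protein, went from 583 ± 42.9 to 5020 ± 382 (SD, n = 3 each; log2 fold change 3.10, adjusted p = 2.09e-14). Cebpb, a C/EBP factor of inflammation and fat cell differentiation, was higher by 2.99 (adjusted p = 3.22e-10). Maf, which encodes a large Maf protein, was lower, with a log2 fold change of -1.94 (adjusted p = 5.07e-11), while the small Maf gene Maff was higher.

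Serum response factor and its ternary complex and myocardin-related partners are the factors that read the serum response element of Fos. Of 6 tested (8 listed), none was called on heat shock in either genotype by limma, edgeR or DESeq2, with 2 in WT and 1 in KO at an unadjusted limma p under 0.05 (40.76% and 16.72% of all genes). In KO control against WT control Elk4 was higher (0.82, adjusted p = 2.21e-06), and Mkl1 (-2.26, adjusted p = 9.51e-12) and Elk1 (-0.81, adjusted p = 1.17e-07) were lower.

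Of 31 tested MAP kinases of the ERK, JNK and p38 branches (33 listed), 1 was called in WT heat shock, beside 3.68% of all genes tested. At an unadjusted limma p under 0.05 there were 13 in WT, against 40.76% of all genes. The gene called was Rps6ka3, which encodes the ERK-activated kinase RSK2. It had a log2 fold change of -0.69 (661 ± 120 to 408 ± 68.8, SD, n = 3 each, adjusted p = 0.00221 from limma). None was called in KO heat shock by limma, edgeR or DESeq2, with 8 at an unadjusted limma p under 0.05 (16.72% of all genes). In KO control against WT control 6 were higher and 7 lower. Map3k5, which encodes the stress kinase ASK1, was higher by 1.34 (adjusted p = 4.90e-08) and Map2k6, a kinase of p38, by 1.31 (adjusted p = 5.35e-09). Mapkapk3, a target kinase of p38, went from 2311 ± 117 to 117 ± 12.2 (SD, n = 3 each; -4.29, adjusted p = 3.29e-15), and Mapk12, p38 gamma, was lower too (-2.70, adjusted p = 4.79e-13).

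Of 25 tested textbook AP-1 target genes (30 listed), none was called on heat shock in either genotype by limma, edgeR or DESeq2. Over all genes tested, limma called 3.68% in WT and 0.887% in KO. With quantile normalization 1 of these target genes, Il6, was called in WT, as lower. At an unadjusted limma p under 0.05 there were 10 in WT and 7 in KO (40.76% and 16.72% of all genes). In KO control against WT control 8 were higher and 7 lower. Il1rl1, the interleukin 33 receptor, was higher by 3.33 (adjusted p = 1.22e-14) and Fgf7, a growth factor for epithelia, by 3.12 (adjusted p = 2.32e-13). Mmp3, a matrix metalloproteinase, was lower (-4.97, adjusted p = 5.50e-08), as was the chemokine gene Cxcl12 (-4.92, adjusted p = 6.10e-17). The median log2 fold change of this list was 0.32, against -0.04 over all genes tested. For the other lists it was 0.19 (basic leucine zipper partners), -0.39 (serum response and ternary complex factors) and -0.05 (MAP kinases). For KO heat shock against WT heat shock, the lists of 21, 6, 31 and 25 tested genes, in the same order, had 7 higher and 6 lower, 1 and 2, 5 and 8, and 10 and 7, beside 23.2% higher and 25.5% lower over all genes tested. For the difference between the responses, limma and edgeR called no gene of the 4 lists and DESeq2 called Rps6ka3, with 5 of 21, 3 of 6, 11 of 31 and 5 of 25 genes at an unadjusted limma p under 0.05 (17.83% of all genes).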

How the data were processed

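Poly-A RNA of 12 MEF libraries was sequenced by the authors, and reads were trimmed with cutadapt 1.10 and aligned with STAR 2.5.2, according to the submitters' processing notes, where mm9 is the build named, whereas the paper gives GRCm38. The deposited signal values are read counts per gene, which the authors scaled by library with DESeq2 size factors. The table holds no coordinates, so those printed here come from GENCODE M21 and RefSeq on GRCm38. All values (100%) were whole multiples of 1 read within a tolerance of 0.01 read, and the recovered reads served for the edgeR and DESeq2 alternatives.

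Values of log2(signal + 1) were fitted in limma 3.58.1 (R 4.3.3; eBayes with a trend; 1 mean per group, 12 libraries in 1 fit, no block) for 14201 genes, those with 3 or more libraries at a signal of 10 or more. A gene was called at an adjusted p of at most 0.05, over all genes tested, and 1.5-fold. The 5 comparisons were heat shock against control in each genotype, KO against WT in each treatment, and the difference between the responses. The alternatives were pseudocounts of 0.5 and 5, no filter, a filter of 50, quantile normalization, edgeR 4.0.16, DESeq2 1.42.0, a replicate block, only the groups compared, and each library left out in turn. Intervals are limma's 95% intervals. The scripts were tested on simulated data.

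The rule for names took all 9 members, up to 2 called genes per direction and comparison from each list (a mean signal of at least 100 in the higher group), the 5 genes most correlated with Fos, Jun and Atf3, and Tgm2, Hspa1b and Hspb1. A few genes under this rule are not reported here. The members and lists were chosen with earlier results of these data known. Libraries of a group correlated at a Pearson r of 0.993 to 0.996 over genes. Nothing used here says whether they came from separate cultures, so the spread behind the p-values is that between these libraries and may be technical.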

Additional observations from a re-analysis of the deposited data

How the results depend on the processing

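Over 21 alternative settings, 12 of which left out 1 library, 903 of 936 values of single genes kept their direction and their side of the threshold, 23 newly passed it and 10 changed sign. In WT heat shock against control, 4 members were called under every setting, and with the replicate block the counts of members called were 4, 0, 6, 6 and 0 in the 5 comparisons, the same as without it. Libraries were not treated as paired by replicate number. To look for pairing, the mean of its group was subtracted from each log2(signal + 1) value. These deviations, not the levels themselves, were then correlated over genes between libraries of different groups. Of 18 such correlations between same-numbered libraries, 2 were above 0.1 (-0.0710 to 0.205). By mean correlation, 6 of 12 libraries were closest to their own number. Both values above 0.1 were between WT control and KO control, at 0.205 for replicate 1 and 0.158 for replicate 3 (0.0279 for replicate 2). Across numbers, replicates 1 and 3 of these groups were at -0.150 and -0.197. The mitochondrial share of reads rose with replicate number in both (0.687, 0.892 and 1.19% in WT control, 0.674, 0.816 and 1.13% in KO control).

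In KO heat shock against control, 1 member (Fos) was called with a pseudocount of 5, a filter of 50, edgeR or DESeq2, and 0 to 1 when a library was left out. For the difference between the responses it was 1 with edgeR, 2 with DESeq2, and 0 to 2 with a library left out. KO control against WT control gave 6 members (6 to 6 with a library left out), and KO heat shock against WT heat shock 6 (6 to 8, with Fosb or Jun added).

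The 10 changes of sign were all in KO heat shock against control and near 0. Junb was -0.01 with quantile normalization, -0.02 with edgeR and -0.01 with DESeq2. It was -0.00 and -0.13 without KO control replicates 2 and 3 and -0.02 without KO heat shock replicate 1. Fosl1 was 0.02 and Jund 0.05 without KO control replicate 1, Jun -0.06 without KO control replicate 3 and Maff -0.01 without KO heat shock replicate 3. With each library left out in turn, the ranges were -0.10 to 0.02 for Fosl1, -0.06 to 0.13 for Jun, -0.13 to 0.16 for Junb, -0.23 to 0.05 for Jund and -0.01 to 0.14 for Maff. The cause was not tested.

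Over all genes, WT heat shock against control called 523 genes, 327 with a filter of 50 (fewer genes tested) and 312 without WT control replicate 3. It called 760 without WT control replicate 1, 713 without WT heat shock replicate 1, 662 with no filter and 600 with quantile normalization. KO heat shock against control called 126, 44 with only the groups compared and 144 with no filter. The difference between the responses called 0, against 12 with a pseudocount of 5, 10 with edgeR, 35 with DESeq2, 2 with a pseudocount of 0.5, 3 with a filter of 50, 4 with quantile normalization, 126 without WT control replicate 1, 68 and 8 without WT heat shock replicates 1 and 3, and 1 and 13 without KO control replicates 1 and 3. Low reads limit Atf3 in KO MEFs and Fos in WT control MEFs.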
